A study of Mus musculus with 18 samples.

Results

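Ferritin and the cellular regulators of iron are 8 genes here: the ferritin subunits Ftl1 and Fth1, the transferrin receptor Tfrc, the iron regulatory proteins Aco1 and Ireb2, the ferritin cargo receptor Ncoa4 and the iron chaperones Pcbp1 and Pcbp2. They were taken by an exact match of the gene name, out of 17714 gene labels in the table of long-read counts, and their 106 isoforms, out of 114425, were summed per gene. All 8 had enough reads to be among the 8184 genes tested, and together they held 970993 reads. Ftl1 was picked because its transcript leads the small extracellular vesicles (sEVs), so its own sEV values are described without a test. The set was thus chosen by the sEV level of Ftl1. The other 7 members were not chosen by a rule on their own sEV values, but they were named with earlier results of these data known. Their sEV tests are therefore not fully independent of that choice. Among them, Fth1 itself ranked between 2nd and 5th in every sEV library.

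The study sequenced polyadenylated RNA of sEVs and of the cells that released them, from primary mouse brain cultures, as full-length cDNA on the PacBio platform. The 6 groups of 3 libraries each are astrocyte sEVs, microglia sEVs, neuron sEVs, astrocyte cells, microglia cells and neuron cells. The labels used here give no strain, genotype, age or treatment for any group. All sEV and cell cDNA went through 10 cycles of reamplification, and sEVs and cells were pooled for sequencing apart, on 2 SMRT cells per pool, so fraction and sequencing pool cannot be told apart in any difference between sEVs and cells.

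Ferritin is a hollow protein shell that stores iron in a form that cannot react; Fth1 encodes the heavy subunit, which oxidises the iron that enters, and Ftl1 the light subunit, which helps to lay it down as mineral. In iron-poor cells the iron regulatory proteins, encoded by Aco1 and Ireb2, bind stem-loops in messenger RNAs. They block translation of ferritin messages and protect the message of the transferrin receptor, so part of this control acts on translation and on message decay and is not read by a transcript count alone. Microglia, the macrophages of the brain, are known for storing iron in ferritin.

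Library depth ran between 434298 and 683381 assigned reads. Levels are given as CPM, a gene's part of the library's reads on a common scale, after scaling by the trimmed mean of M-values (TMM). Differences were tested with the quasi-likelihood test of edgeR, the p-values being adjusted by Benjamini-Hochberg over every gene tested, and an adjusted p under 0.05 counts as passing. Most markers of each label had reads, beside those of other cell types. In cells, Cx3cr1 was at 0 in microglia, and Nefh and Elavl4 were at 0 in neurons. In sEVs, Tmem119 and Itgam were at 0 in microglia, and Sox9, Fgfr3 and Gjb6 in astrocytes. Nefh, Slc17a7, Syp and Elavl4 were at 0 in neuron sEVs. Of 19 microglia markers, 18 had reads in microglia cells and summed to between 28158 and 33830 RPM, the unit of CPM without TMM scaling. The same list summed to between 126.8 and 196.8 RPM in astrocyte cells, where 13 of its markers, Tyrobp and Trem2 among them, were at 0, and to between 103.8 and 105.2 RPM in neuron cells, where 1 of the 19 had reads. Astrocyte markers were less separated, at 34843 to 35123 RPM in astrocyte cells and 4495 to 5489 RPM in neuron cells. Neuron markers summed to between 12185 and 13930 RPM in neuron cells and between 1035 and 1305 RPM in astrocyte cells. In neuron sEVs the 2 lists lay close, at 2921 to 4113 RPM for astrocyte markers and 3762 to 4655 RPM for neuron markers. Astrocyte sEVs had 12435 to 24454 RPM of astrocyte markers and 503.9 to 674.2 RPM of neuron markers. Microglia markers summed to between 9746 and 15676 RPM in microglia sEVs. Markers of the oligodendrocyte lineage, 10 of 12 of them with reads, summed to between 4583 and 9908 RPM in astrocyte cells, with no reads of Mog or Cspg4, and to between 2018 and 3324 RPM in astrocyte sEVs. They summed to between 615.1 and 1791 RPM in neuron cells, and the part of these other cells in the results was not tested. A pair of sEV libraries stood apart in another respect: the predicted gene Gm42047 took 6.756% of the reads of astrocyte sEV replicate 1 and 8.941% of those of neuron sEV replicate 1, and at most 1.63% elsewhere. Results that change without these libraries are given with their values below. The labels do not say whether the 3 libraries of a group came from separate cultures, so the p-values measure the spread between these libraries, which may be technical. Because these are bulk samples, fewer cells of a type and less RNA per cell cannot be told apart.

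The sequences just before the transcription starts of the ferritin pair are shown because their messages are the most abundant members. Of the 2 promoters listed for Fth1, the one holding the letters of a CCAAT box was picked. The box shown for Fth1 was thus a condition of that choice and not a result. Both come from the RefSeq promoter table on build GRCm38.p6, while the reads were placed on GRCm39. The 100 bases before the start are Ftl1, chr7:45459887-45459986 on the minus strand, and Fth1, chr19:9982546-9982645 on the plus strand, with capitals marking a CCAAT box read on the opposite strand.
Ftl1: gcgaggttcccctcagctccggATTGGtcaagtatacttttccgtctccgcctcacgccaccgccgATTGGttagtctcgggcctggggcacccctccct
Fth1: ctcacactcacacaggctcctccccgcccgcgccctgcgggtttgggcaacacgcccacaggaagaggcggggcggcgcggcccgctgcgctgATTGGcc
In Ftl1 the capitals begin 78 and 34 bases before the start, and in Fth1 they begin 7 bases before it. Members are counted below by gene, with a match in any of a gene's promoters (13 for the 8 members). The shares of all promoters count each promoter singly, so the 2 kinds of count differ in unit. A CCAAT box on either strand lay in the 250 bases before a start of Ftl1, Fth1 and Tfrc, and in 33.8% of the 32851 promoters in the table. The letters TATAA lay within the first 50 bases after the start in Ftl1 and Fth1, in no other member, and in 1.74% of all promoters. These matches describe the letters and name no bound factor.

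Ftl1 was the most abundant message in all 9 sEV libraries, where it took between 4.472% and 31.5% of the reads. In cells it ranked 17th to 20th in astrocytes, 2nd, 4th and 5th in microglia, and 11th in all 3 neuron libraries. Astrocyte sEVs had 146851, 298249 and 167787 CPM of Ftl1, against 3615, 3718 and 5298 CPM in astrocyte cells. Neuron sEVs had 165454, 255881 and 215075 CPM, against 5916, 5830 and 5813 CPM in neuron cells. Microglia sEVs had 60333, 45767 and 48182 CPM, against 29992, 25331 and 25725 CPM in microglia cells. The sEV libraries lay above the cell libraries of their own type without overlap in every case, by 5.60 on the log2 scale in astrocytes (48.5-fold), 5.18 in neurons (36.3-fold) and 0.93 in microglia (1.90-fold). Groups that do not overlap were common in these comparisons, at 40.0% of all genes in astrocytes, 53.8% in neurons and 27.7% in microglia. The place of microglia among the 3 types was thus turned over between the fractions. In cells, microglia had by far the most Ftl1, whereas in sEVs the microglial libraries had the least, and the astrocyte and neuron sEV libraries overlapped each other.

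**Figure D1:**
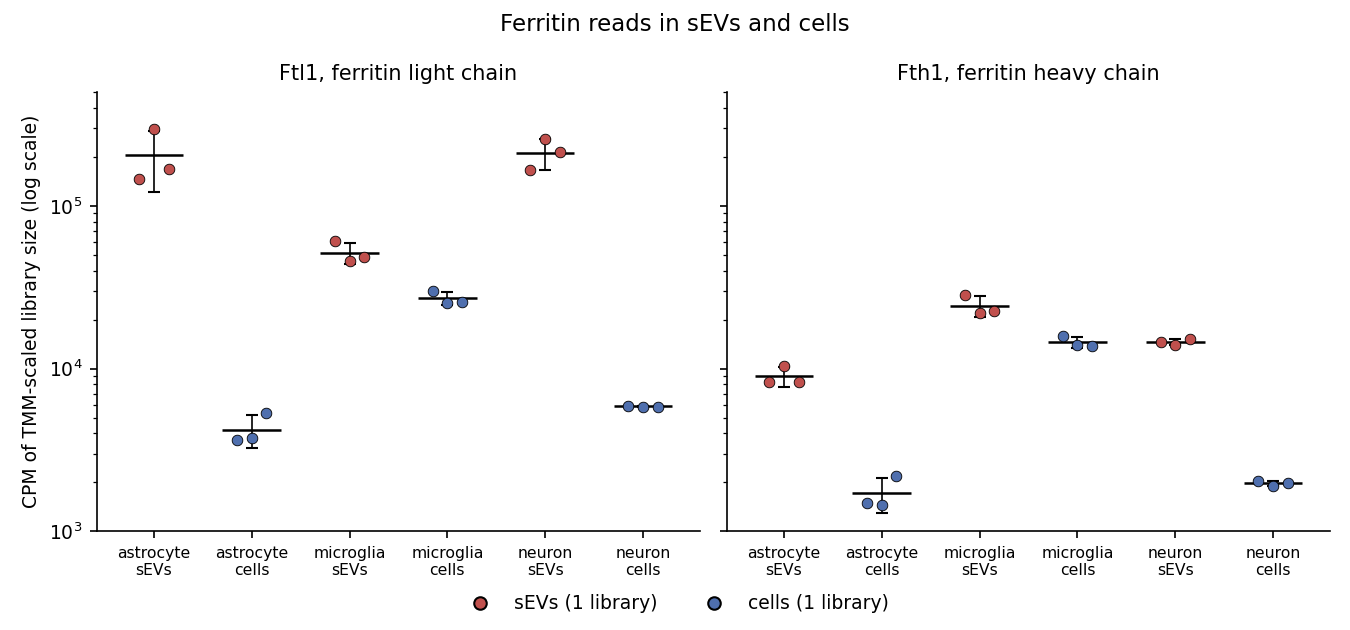
Levels of Ftl1 and Fth1 in CPM on a log axis, 1 point per library, a bar at the mean of 3 libraries and whiskers of 1 SD, with sEVs to the left of cells for each cell type. Ftl1 in astrocyte and neuron sEVs lies far above the cells of the same type, while microglia sEVs and cells lie close together, and for Fth1 the microglial libraries are the highest in both fractions.

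Among the 7 members other than Ftl1, 4 passed the test in astrocyte sEVs against astrocyte cells, 3 higher and 1 lower, where 20.3% of all genes passed, 8.04% higher and 12.2% lower. In neuron sEVs against neuron cells 3 of the 7 passed, 2 higher and 1 lower, where 31.4% of all genes passed, 13.6% higher and 17.8% lower. In microglia sEVs against microglia cells 1 of the 7 passed, and it was lower, where 11.9% of all genes passed, 9.18% lower and 2.70% higher. Fth1, Tfrc and Pcbp2 passed in both astrocytes and neurons, Pcbp1 passed in astrocytes, and Tfrc was the member that passed in microglia. Not one of the 7 was higher in microglia sEVs by this test. At an unadjusted p under 0.05 there were 3 of the 7, Fth1 higher and Tfrc and Aco1 lower, and DESeq2 called 2. Of all genes DESeq2 called 1400 of 8184 there. The share of all genes at an unadjusted p was not taken, here or below, so those member counts have no background.

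**Figure D2:**
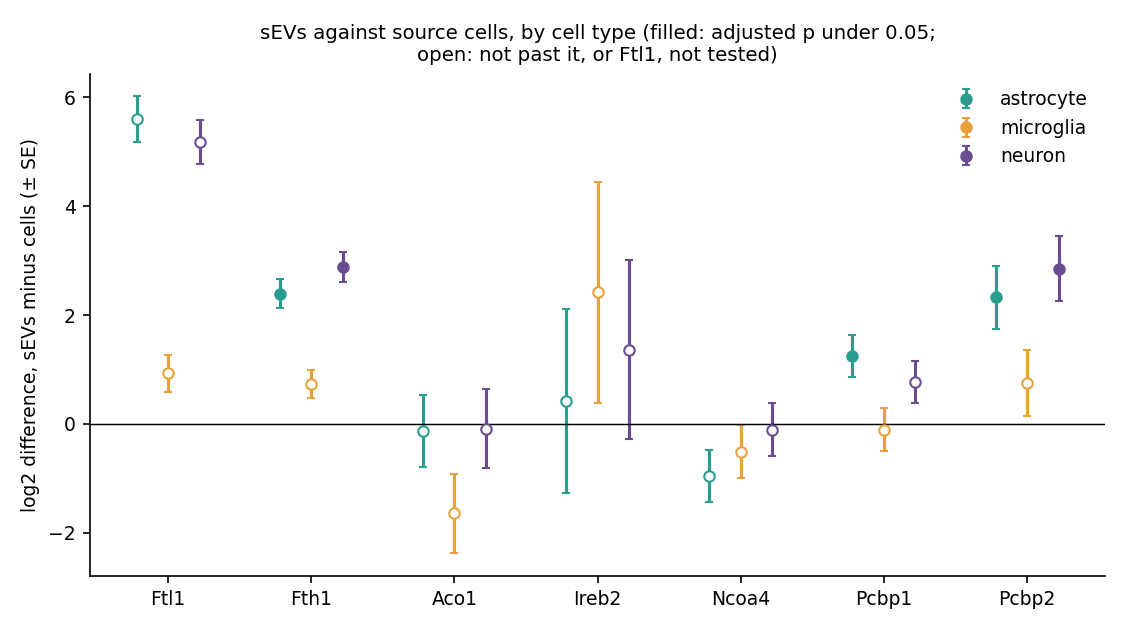
Log2 difference of sEVs over cells of the same type for 7 members, with bars of 1 standard error, and filled points where the edgeR adjusted p was under 0.05; Tfrc, with no read in any sEV library, is not drawn. Ftl1 is drawn as a description without a test, and the ferritin points of microglia lie nearer to 0 than those of astrocytes and neurons.

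Fth1, the oxidising subunit, also averaged higher in sEVs, though by less than Ftl1. In microglia the 2 differences lay close, at 0.73 for Fth1 and 0.93 for Ftl1 on the log2 scale. Astrocyte sEVs had 8260, 10406 and 8233 CPM of Fth1, against 1493, 1459 and 2186 CPM in astrocyte cells, a log2 difference of 2.39 ± 0.268 (SE; 5.24-fold; edgeR adjusted p = 7.75e-06). Neuron sEVs had 14491, 13974 and 15218 CPM, against 2044, 1897 and 1973 CPM in neuron cells, a log2 difference of 2.88 ± 0.274 (SE; 7.39-fold; edgeR adjusted p = 7.95e-07). Microglia sEVs had 28246, 21927 and 22598 CPM, against 15884, 14022 and 13834 CPM in microglia cells. The microglial libraries did not overlap, yet the log2 difference of 0.73 ± 0.256 (SE; 1.66-fold) did not pass the edgeR test (adjusted p = 0.0746). That call depended on the scaling and the tool: the log2 difference was 1.33 (edgeR adjusted p = 0.00272) without TMM and 0.74 (adjusted p = 0.00946) with DESeq2, and leaving out astrocyte sEV replicate 1 gave an edgeR adjusted p of 0.0499. The difference between sEVs and cells differed among the 3 cell types in edgeR's test of the interaction (F = 19, adjusted p = 0.00489), and Fth1 was the only 1 of the 7 members to pass it, where 3.96% of all genes passed. Without TMM this interaction had an adjusted p of 0.0779.

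Because both subunits are counted in the same library, their ratio needs no scaling between libraries. A long read stands for 1 cDNA of whatever length, so no division by length was made, and the ratio is compared between groups rather than read as subunits per shell. Astrocyte sEVs held 17.8, 28.7 and 20.4 reads of Ftl1 per read of Fth1, against 2.42, 2.55 and 2.42 in astrocyte cells. Neuron sEVs held 11.4, 18.3 and 14.1, against 2.89, 3.07 and 2.95 in neuron cells. Microglia sEVs held 2.14, 2.09 and 2.13, against 1.89, 1.81 and 1.86 in microglia cells. The ratio thus averaged 22.3 ± 5.68 in astrocyte sEVs and 14.6 ± 3.47 in neuron sEVs (SD, n = 3 each), and all other groups lay under 3.1. In microglia the sEV and cell ratios did not overlap but differed by far less than in the other types. As Ftl1 chose the comparison, these ratios are given without a test.

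**Figure D3:**
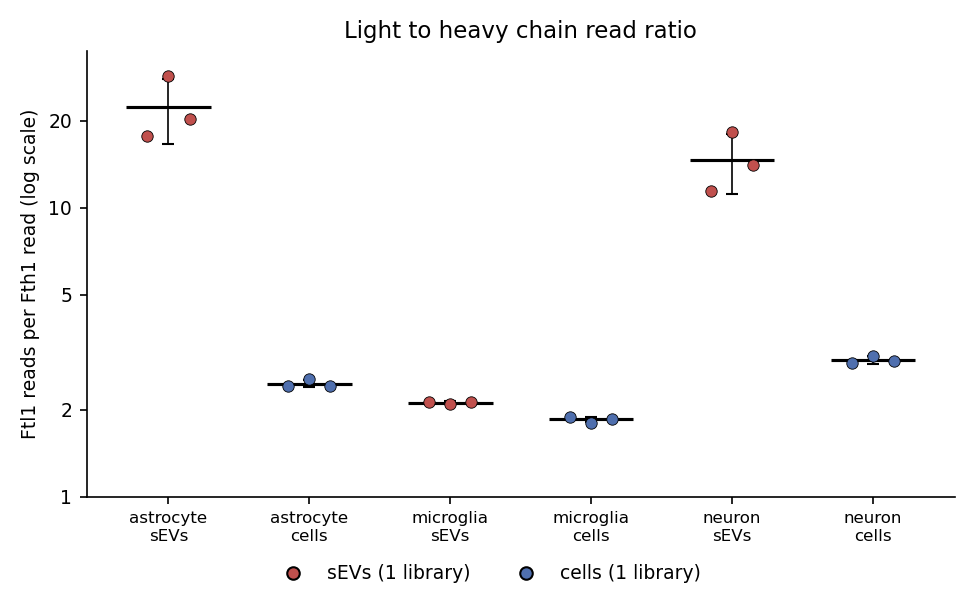
Reads of Ftl1 per read of Fth1 in each library on a log axis, with a bar at the mean of 3 libraries and whiskers of 1 SD, sEVs to the left of cells. Astrocyte and neuron sEV libraries lie above 11, and every microglial library and every cell library lies between 1.81 and 3.07.

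In the cells themselves, ferritin set microglia apart. Microglia cells had 27016 ± 2585 CPM of Ftl1 and astrocyte cells 4210 ± 943 CPM (SD, n = 3 each), a log2 difference of 2.68 ± 0.364 (SE; 6.42-fold; edgeR adjusted p = 1.82e-05). Fth1 averaged 14580 ± 1133 CPM in microglia cells and 1712 ± 410 CPM in astrocyte cells (SD, n = 3 each), a log2 difference of 3.09 ± 0.276 (8.51-fold; edgeR adjusted p = 2.34e-07). These were the 2 of 8 members to pass in microglia against astrocyte cells, where 35.4% of all genes passed, 15.1% higher. The same 2 members, both higher, passed in microglia against neuron cells, where 43.3% of all genes passed, 16.6% higher. There the log2 difference was 2.21 for Ftl1 (4.62-fold; edgeR adjusted p = 0.000101) and 2.89 for Fth1 (7.40-fold; edgeR adjusted p = 3.38e-07). A count of 2 members in 8 is thus near the background share, and the result lies in the size of the ferritin differences. The median over all tested genes was itself −0.52 in microglia against astrocyte cells and −0.67 in microglia against neuron cells, and without TMM these medians were −1.32 and −1.45. The ferritin differences stayed positive without TMM, at 1.91 and 1.42 for Ftl1 and 2.32 and 2.10 for Fth1. In neuron cells against astrocyte cells 0 of 8 members passed edgeR's test, where 10.4% of all genes passed. There 1 member had an unadjusted p under 0.05 and 1 was called by DESeq2, which called 1174 of all 8184 genes. Ftl1 differed by 0.48 and Fth1 by 0.20 on the log2 scale between these 2 groups, with edgeR adjusted p of 0.49 and 0.76.

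Between sEVs of different cell types, Fth1 was highest in microglia, as it was in cells, while Ftl1 was lowest there. Fth1 averaged 24257 ± 3471 CPM in microglia sEVs, 14561 ± 625 CPM in neuron sEVs and 8966 ± 1247 CPM in astrocyte sEVs (SD, n = 3 each), and no 2 of these groups overlapped, as was so for 41.2% of all genes in microglia against astrocyte sEVs, 53.0% in microglia against neuron sEVs and 31.0% in neuron against astrocyte sEVs. Microglia sEVs were 2.71-fold higher than astrocyte sEVs (log2 difference 1.44 ± 0.26 SE, edgeR adjusted p = 0.000295) and 1.67-fold higher than neuron sEVs (log2 difference 0.74 ± 0.256 SE, edgeR adjusted p = 0.0237). The second of these calls was lost without microglia sEV replicate 1 or any 1 neuron sEV library, at an edgeR adjusted p of up to 0.0651. Neuron sEVs against astrocyte sEVs gave a log2 difference of 0.70 that did not pass (edgeR adjusted p = 0.078). Ftl1 was 3.97-fold lower in microglia sEVs than in astrocyte sEVs and 4.13-fold lower than in neuron sEVs, without overlap, again as a description. In all, 2 of 7 members passed in microglia against astrocyte sEVs (41.7% of all genes) and 2 of 7 in microglia against neuron sEVs (52.0% of all genes). In neuron against astrocyte sEVs 0 of 7 passed edgeR's test (14.3% of all genes). There 2 members had an unadjusted p under 0.05 and 2 were called by DESeq2, which called 1735 of all 8184 genes. Tfrc, at 0 in every sEV library, is among these 7 members and could not pass. The members that passed beside Fth1 were Aco1, 4.78-fold lower in microglia than in astrocyte sEVs (edgeR adjusted p = 0.0202), and Pcbp2, 3.34-fold lower in microglia than in neuron sEVs (edgeR adjusted p = 0.0172). The Aco1 call was lost without astrocyte sEV replicate 2 (edgeR adjusted p = 0.058), and the Pcbp2 call without microglia sEV replicate 1 or neuron sEV replicate 3 (edgeR adjusted p of up to 0.076).

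Tfrc encodes the receptor that takes up iron-laden transferrin. It had no read in any of the 9 sEV libraries. Neuron cells had 35, 39 and 51 reads (66.2 ± 15.3 CPM, SD, n = 3), astrocyte cells 24, 23 and 28 reads (35.3 ± 3.92 CPM, SD, n = 3), and microglia cells 0, 5 and 11 reads. The smallest isoform count above 0 was 2, so single reads may be missing, and the bounds that follow hold for these counts only. With a floor of 3 reads per library, which covers counting error only, Tfrc was at least 7.56-fold lower in astrocyte sEVs than in their cells (edgeR adjusted p = 0.0039) and at least 11.9-fold lower in neuron sEVs (edgeR adjusted p = 0.0016). In microglia it was at least 2.43-fold lower in sEVs (edgeR adjusted p = 0.027), but 1 of the 3 microglia cell libraries was itself at 0, and the groups overlapped. The microglial call was lost without any 1 of the 3 microglia sEV libraries or of microglia cell replicates 2 and 3, at edgeR adjusted p up to 0.103. In astrocytes and neurons the message for iron uptake was thus lower in sEVs where Fth1 was higher.

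Aco1 encodes iron regulatory protein 1, which is an aconitase when it carries an iron-sulphur cluster and a binder of RNA when it does not. Its highest levels were in astrocytes, at 71.5 ± 16.7 CPM in astrocyte sEVs and 78.4 ± 16.6 CPM in astrocyte cells (SD, n = 3 each), with a log2 difference of −0.13 (edgeR adjusted p = 0.969). Microglia sEVs had 23.6, 0 and 21.4 CPM, against 41.5, 51.0 and 50.4 CPM in microglia cells; these did not overlap, but the difference did not pass (edgeR adjusted p = 0.168). Neuron sEVs had 13.3, 31.6 and 12.4 CPM, against 9.46, 24.5 and 26.3 CPM in neuron cells, and the groups overlapped. At the level of isoforms the picture differed. The Aco1 isoform that follows every splice junction of the known transcript had 6, 13 and 16 reads in neuron cells and none in neuron sEVs (edgeR adjusted p = 0.00353 over isoforms), while it had 41, 44 and 37 reads in astrocyte sEVs, against 44, 53 and 66 in astrocyte cells. All 8, 15 and 7 Aco1 reads of the neuron sEV libraries were 3′ fragments. So were 18 of 59 reads in astrocyte sEV replicate 1 and 8 of 13 in microglia sEV replicate 3. Each of these fragment isoforms was seen in 1 library only. Over all types, 56 of 196 Aco1 reads in sEVs were 3′ fragments (28.57%, 95% Wilson interval 22.71 to 35.26), against 0 of 258 reads in cells. The reads carry no molecular identifiers, so such intervals cover counting error alone.

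Ireb2 encodes iron regulatory protein 2, which is broken down when iron is plentiful. It was the least abundant member in each of the 3 groups of cells, while in sEVs Tfrc, at 0, was lower. It had a highest library value of 71.7 CPM in neuron sEVs and 22.1 CPM in neuron cells, and with libraries at 0 in every group but neuron cells. No comparison of sEVs with cells passed for Ireb2 (edgeR adjusted p = 0.948 in astrocytes, 0.527 in microglia and 0.571 in neurons). All of its 86 reads in sEVs were 3′ fragments, against 18 of 39 in cells, so its sEV counts hold no full-length message.

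**Figure D4:**
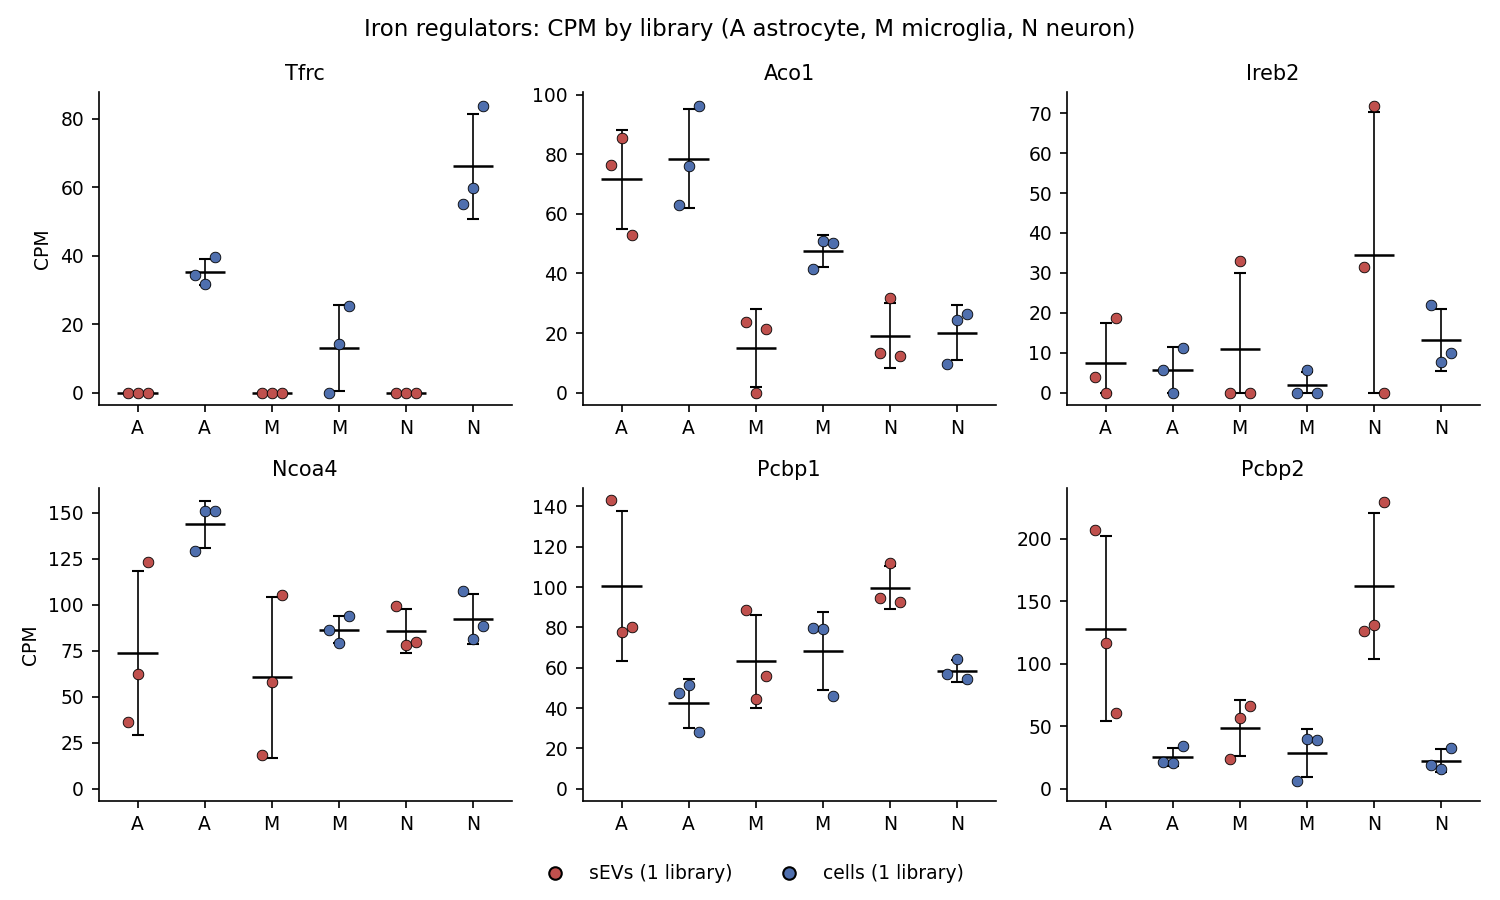
Levels of the 6 members other than ferritin in CPM, 1 point per library, a bar at the mean of 3 libraries and whiskers of 1 SD ended at 0 where they would pass it, sEVs to the left of cells for each cell type. Tfrc is at 0 in every sEV library, and Pcbp2 lies higher in astrocyte and neuron sEVs than in their cells.

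Ncoa4 is the receptor that carries ferritin to lysosomes, where its iron is released. Astrocyte sEVs had 36.2, 62.1 and 123 CPM, against 129, 151 and 151 CPM in astrocyte cells, which did not overlap, but the log2 difference of −0.96 ± 0.477 (SE) did not pass (edgeR adjusted p = 0.176). Without astrocyte sEV replicate 3 it did (edgeR adjusted p = 0.0482). In microglia the log2 difference was −0.51 (edgeR adjusted p = 0.607), and in neurons, at 85.9 ± 11.9 CPM in sEVs and 92.3 ± 13.5 CPM in cells (SD, n = 3 each), it was −0.10 ± 0.479 (SE; edgeR adjusted p = 0.931). The ferritin messages were thus higher in sEVs of astrocytes and neurons where the message for the ferritin receptor did not pass in either direction. Of its 969 reads, 932 belonged to 1 isoform.

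Pcbp1 and Pcbp2 encode RNA-binding proteins that also deliver iron to ferritin. Pcbp2 had 207, 116 and 60.2 CPM in astrocyte sEVs, against 21.5, 20.8 and 33.9 CPM in astrocyte cells (log2 difference 2.32 ± 0.584 SE, 5.03-fold, edgeR adjusted p = 0.00889). It had 126, 131 and 229 CPM in neuron sEVs, against 18.9, 15.3 and 32.8 CPM in neuron cells (log2 difference 2.85 ± 0.6 SE, 7.25-fold, edgeR adjusted p = 0.0017). Microglia overlapped, at 48.5 ± 22.1 CPM in sEVs and 28.3 ± 19 CPM in cells (SD, n = 3 each; edgeR adjusted p = 0.5). Pcbp2 was spread over 42 isoforms, 28 of them seen in 1 library each, and 233 of its 611 sEV reads were 3′ fragments (38.13%), against 19 of 129 reads in cells (14.73%). In neuron sEV replicate 3, 78 of 129 reads were an isoform with an exon not in the annotation, seen in no other library. In astrocyte sEVs another isoform, with no read in cells, took 113 of 160, 33 of 60 and 0 of 42 reads in replicates 1, 2 and 3. Without the pair of libraries rich in Gm42047 the astrocyte difference was 1.78 (edgeR adjusted p = 0.0566) and the neuron difference 3 (edgeR adjusted p = 0.00204). The astrocyte call was lost without astrocyte sEV replicate 1 or astrocyte cell replicate 2, at an edgeR adjusted p of up to 0.0528, whereas the neuron call held without any 1 library.

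Pcbp1, a gene without introns whose reads fell in 1 isoform of a single exon, moved less. It had 143, 77.6 and 80.3 CPM in astrocyte sEVs, against 47.3, 51.3 and 28.3 CPM in astrocyte cells (log2 difference 1.25 ± 0.385 SE, 2.38-fold, edgeR adjusted p = 0.0285). This call was lost in 4 of the fits that leave out 1 library, namely astrocyte sEV replicate 1 or any of the 3 astrocyte cell replicates, at an edgeR adjusted p of up to 0.152. Without the pair rich in Gm42047 the log2 difference was 0.89 (edgeR adjusted p = 0.156). Neuron sEVs had 94.5, 112 and 92.4 CPM, against 56.8, 64.3 and 54.2 CPM in neuron cells, without overlap, and the log2 difference of 0.77 ± 0.382 (SE) did not pass (edgeR adjusted p = 0.137). Microglia overlapped, at 63.1 ± 23 CPM in sEVs and 68.3 ± 19.5 CPM in cells (SD, n = 3 each; edgeR adjusted p = 1).

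Ftl1 reads were close to a single isoform. Of its 19 isoforms, 3 match a reference transcript. The leading one of these held 861657 reads, 99.92% of the gene, between 99.76% and 100% in each sEV library and between 97.97% and 99.93% in each cell library. The rest lay mainly in an isoform with another 5′ end. It took 0.068%, 0.036% and 0.047% of Ftl1 reads in neuron sEVs, against 0.96%, 0.76% and 1.69% in neuron cells. In astrocytes the same isoform took less than 0.01% in each sEV library, against 0.198%, 0.894% and 0.267% in cells. As a level, this isoform averaged 94.5 CPM in neuron sEVs and 75 CPM in neuron cells, while the leading reference match differed by 4.92 on the log2 scale. In astrocytes the isoform with another 5′ end averaged 7.66 CPM in sEVs and 18.8 CPM in cells, with a log2 difference of 5.48 for the leading reference match. The shares of Ftl1 isoforms have as their denominator the sEV level that picked the gene, so they are described without a test.

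Fth1 reads were just as concentrated, but the isoform that held them was not the same in all libraries. An isoform with another 5′ end, numbered 9237 by the authors, took between 99.4% and 100% of Fth1 reads in 16 libraries. In microglia sEV replicates 1 and 2 that isoform had 0 of 15586 and 0 of 11296 reads, and an isoform matching the reference, numbered 91011, had 15571 and 11084 reads in its place, 99.9% and 98.12% of the gene. Microglia sEV replicate 3, one of the 16, had 13736 reads of the first isoform. The 3 replicates of 1 group thus differ in the isoform name while the gene sums agree, so Fth1 is read here as a gene and its isoforms are not compared between groups. Such a turn between replicates, over 90% of a gene's reads in 1 library and under 1% in another of the same group, occurred in 15 of 644 genes with at least 100 reads in each microglia sEV library (2.33%), in 48 of 660 in neuron sEVs (7.27%), and in 7 of 614 in microglia cells (1.14%). The cause was not tested.

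**Figure D5:**
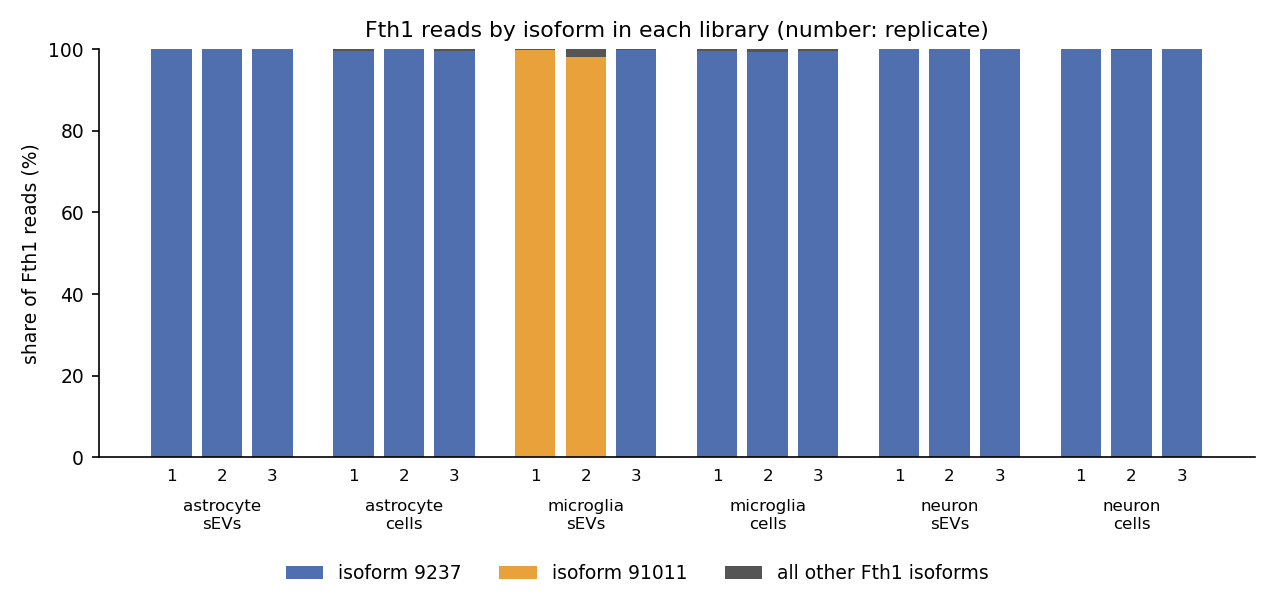
Percent of Fth1 reads in the isoform with another 5′ end (9237), an isoform matching the reference (91011) and all others, as 1 stacked bar per library. Microglia sEV replicates 1 and 2 hold nearly all their reads in isoform 91011, and the other 16 libraries hold theirs in the isoform with another 5′ end.

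Reads that follow all splice junctions of a known transcript made up 99.99% ± 0.005843 of Ftl1 reads in sEVs and 99.85% ± 0.1657 in cells (SD, n = 9 each), again a description. For Fth1 they made up 99.98% ± 0.0225 in sEVs and 99.86% ± 0.1702 in cells (SD, n = 9 each), a difference of 0.126 percentage points (exact permutation test within cell types, two-sided, p = 0.02). Without astrocyte sEV replicate 1 or 3, the Fth1 difference had an exact permutation p of 0.0575. Ferritin reads thus almost wholly followed every junction of a known transcript in both fractions. The 3′ fragments of Aco1, Ireb2 and Pcbp2 match only part of a known transcript, which is not the same as being spliced in another way. A pair of ferritin pseudogene labels in the table held few reads, 2 for Fth-ps2 and 3 for a read-through of Myl6 and Ftl1-ps2, so little of the signal was counted there. For reads that match several ferritin loci, not given in the sources used here is how they were placed.

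The genes with levels most like those of Ftl1, among 4023 compared over the 18 libraries by correlation of log2 CPM, were Gskip (Pearson r = 0.957, Spearman rho = 0.895), Txnrd1 (r = 0.94), Arhgap11a (r = 0.939), Nop53 (r = 0.938) and Eef1a1 (r = 0.921). For Fth1 they were Gosr1 (r = 0.948), Rtraf (r = 0.947), Myl6 (r = 0.922), Ppp4r2 (r = 0.921) and Cdkn1a (r = 0.913). Ftl1 and Fth1 themselves correlated less closely (r = 0.777, rho = 0.587). The points share their libraries, pools and depth, so these values describe likeness and carry no test.

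Other genes of iron handling were read as 4 lists. In uptake, transport and export, with 12 genes tested, 0 were higher and 5 lower in astrocyte sEVs than in their cells, 0 and 3 in microglia, and 0 and 5 in neurons. Of all genes 8.04% were higher and 12.2% lower in astrocytes, 2.70% and 9.18% in microglia, and 13.6% and 17.8% in neurons. The median log2 difference of this list was −2.10 in astrocytes, −0.70 in microglia and −1.71 in neurons, where the median of all genes was 0, 0 and −0.10. With genes absent from 1 group set at the floor of 3 reads, the list's medians were −2.10, −1.14 and −1.37. Mcoln1, a lysosomal channel that lets iron out, had 8.21 CPM in astrocyte sEVs and 104.9 CPM in astrocyte cells (edgeR adjusted p = 0.00147), and 23.7 CPM in neuron sEVs and 187.1 CPM in neuron cells (edgeR adjusted p = 0.00282). Slc11a2, the transporter of ferrous iron, fell by 3.99, 2.86 and 3.80 on the log2 scale in astrocyte, microglia and neuron sEVs. Trf, which encodes transferrin, averaged 940.8 ± 288.8 CPM in microglia sEVs and 4073.6 ± 563.9 CPM in microglia cells (SD, n = 3 each; edgeR adjusted p = 0.022).

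Heme synthesis, uptake and breakdown, with 16 genes tested, had 0 higher and 3 lower in astrocyte sEVs, 0 and 3 in microglia sEVs, and 2 and 5 in neuron sEVs, each against cells of the same type. Its median log2 differences were −0.55, −0.10 and −0.56, and with absent genes at the floor −0.55, −0.16 and −0.56. The 3 lower of 16 in astrocytes and in microglia stand beside 12.2% and 9.18% of all genes. In neurons 13.6% of all genes were higher and 17.8% lower. Pgrmc1, a heme-binding membrane protein, had 22.3 CPM in astrocyte sEVs and 440.5 CPM in astrocyte cells (edgeR adjusted p = 3.19e-06), and 54.5 CPM in neuron sEVs and 1769.9 CPM in neuron cells (edgeR adjusted p = 3.99e-07). Mitochondrial iron and iron-sulphur assembly, with 23 genes tested, had 2 higher and 2 lower in astrocytes, 0 and 2 in microglia, and 6 and 1 in neurons. Its median log2 difference was 0.41 in astrocytes, 0.01 in microglia (0.05 with absent genes at the floor) and 1.05 in neurons. In astrocytes these counts lie near the shares of all genes, 8.04% higher and 12.2% lower, and in neurons 13.6% of all genes were higher. Bola3 and Iscu, which act in building iron-sulphur clusters, were higher in both astrocyte and neuron sEVs. Bola3 averaged 87.9 CPM in astrocyte sEVs and 17.4 CPM in astrocyte cells (edgeR adjusted p = 0.00511), and 131 CPM in neuron sEVs and 13.7 CPM in neuron cells (edgeR adjusted p = 0.000349).

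The list for control of iron and of ferritin, with 19 genes tested, had 3 higher and 2 lower in astrocyte sEVs, 0 and 2 in microglia sEVs, and 5 and 1 in neuron sEVs. Its median log2 differences were 0.22, 0 and 1.01, and −0.21 in microglia with absent genes at the floor. The 2 lower in astrocytes and in microglia are near the shares of all genes, 12.2% and 9.18%. Of all genes 8.04% were higher in astrocytes, and 13.6% were higher and 17.8% lower in neurons. Txnrd1, an antioxidant reductase, averaged 213.9 CPM in astrocyte sEVs and 60 CPM in astrocyte cells (edgeR adjusted p = 0.00101), and 312.9 CPM in neuron sEVs and 54 CPM in neuron cells (edgeR adjusted p = 4.5e-05). Slc3a2, a chain of the cystine importer, fell by 2.94, 2.43 and 2.85 on the log2 scale in astrocyte, microglia and neuron sEVs. No gene of the 4 lists was higher in microglia sEVs than in microglia cells, where 2.70% of all genes were. In cells, Trf set microglia apart as ferritin did, at 4073.6 CPM in microglia cells and 92.1 CPM in astrocyte cells (log2 difference 5.47, edgeR adjusted p = 6.09e-06).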

How the data were processed

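Counts of full-length PacBio reads per isoform in 18 libraries were taken as the authors deposited them; per the submitters' processing notes, minimap2 and the build GRCm39 were used, and not given in the sources used here is the tool that defined and counted isoforms. The table's smallest value above 0 is 2. From these counts, isoforms were summed per gene name, genes were filtered by group (filterByExpr), library sizes were scaled by TMM, and 1 model with 6 groups was fitted over all 18 libraries with edgeR 4.0.16 in R 4.3.3 (quasi-likelihood test, Benjamini-Hochberg adjusted p under 0.05). The share of Fth1 reads spliced as known was tested with an exact permutation test of libraries within cell types. The planned tests of Ftl1 isoform usage and splicing were dropped, because their denominator is the level that picked Ftl1. The model was tested on simulated data. Alternatives were no TMM, no filter, full-splice-match reads alone, the 2 groups alone, DESeq2 1.42.0, a replicate block, and each library left out.

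The members, the 4 gene lists and the tests were chosen with earlier results of these data known. Isoforms were named where they averaged 20 reads per library in any group; the 5 genes most like each ferritin gene were named among genes averaging 20 reads, predicted genes passed over; from each list up to 4 genes past the threshold per comparison, by smallest adjusted p, could be named. The 4 lists hold 95 genes, 88 of them in the table. The numbered replicates were checked for pairing: same-numbered libraries had deviations correlated between −0.0815 and 0.0795, so the numbers were not taken as pairs. Promoters came from RefSeq tables on GRCm38.p6, which matched 8 of 8 members.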

Additional observations from a re-analysis of the deposited data

Results flagged for a closer look

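The difference between sEVs and cells in Fth1 was not the same in the 3 cell types. It was 2.39 in astrocytes, 0.73 in microglia and 2.88 in neurons on the log2 scale, and the interaction had an edgeR adjusted p of 0.00489. Over the alternatives the adjusted p ran between 3.02e-09 with DESeq2 and 0.0779 without TMM scaling, the 1 setting in which it did not pass. With Ftl1 left out of the library sizes and no TMM, a setting chosen after seeing the data, it was 0.0333, and with each library left out in turn it stayed between 0.00245 and 0.0189.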

How the results depend on the processing

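The count of members called in astrocyte sEVs against cells was 4 and lay between 2 and 5 with each library left out in turn. Counts in brackets below are the genes called of all genes tested in the same setting. They are not given for fits that leave out 1 library. The count of members was 2 without astrocyte and neuron sEV replicate 1, both rich in Gm42047 (1446 of 8711). Leaving these libraries out was chosen after seeing the data. For microglia sEVs against cells the count was 1. It was 2 without TMM (1185 of 8184), without the filter on low counts (1075 of 17714) and with Gm42047 and Gm20186 taken out (974 of 8219). It was also 2 with DESeq2 (1400 of 8184) and with Ftl1 left out of library sizes (1274 of 8230), the latter likewise chosen after the data were seen. It was 0 with the replicate block (857 of 8184), and 0 to 2 with libraries left out. The replicate block took away the microglial Tfrc call (edgeR adjusted p = 0.0553), and it changed no other call given in the text. With it 3 members passed in microglia against astrocyte sEVs (3125 of 8184), in place of 2. The count in microglia against neuron cells was 2, and 4 in a fit of those 2 groups alone (3860 of 5617). In neuron against astrocyte cells it was 0, and 3 in the 2 groups alone (2044 of 5900), 1 with DESeq2 (1174 of 8184) and 0 to 1 with libraries left out. In microglia against astrocyte sEVs it was 2, and 1 in the 2 groups alone (1814 of 5144). It was 4 with Ftl1 left out of library sizes (3916 of 8230) and 1 to 3 with libraries left out. In microglia against neuron sEVs it was 2, and 0 to 3 with libraries left out. In neuron against astrocyte sEVs it was 0, and 1 without TMM (1358 of 8184) and 1 with full-splice-match reads alone (910 of 6535). It was 1 in the 2 groups alone (809 of 5265) and 2 with DESeq2 (1735 of 8184). It was 1 with Ftl1 left out of library sizes (1419 of 8230) and 0 to 1 with libraries left out. The interaction count was 1, and 0 without TMM (664 of 8184). The Fth1 difference in full-splice-match share lay between 0.0798 and 0.16 percentage points with libraries left out.

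Signs turned only among differences that had not passed, none of which passed after turning. Aco1 was 0.237 in astrocytes with Ftl1 left out of library sizes and −0.433 to 0.0181 with a library left out; in neurons it was 0.118 without the pair rich in Gm42047 and −0.652 to 0.138 with a library left out. Ireb2 ran between −1.36 and 1.34 in astrocytes and between −3.27 and 5.71 in microglia with a library left out. Ncoa4 was 0.0159 in microglia without TMM, 0.0607 with Ftl1 left out of library sizes, and in neurons −0.338 to 0.0043 with a library left out. Pcbp1 in microglia was 0.499 without TMM, 0.0182 without the filter, 0.0423 with Gm42047 and Gm20186 taken out, 0.171 in the 2 groups alone, 0.556 with Ftl1 left out of library sizes and −0.437 to 0.0776 with a library left out. Pcbp2 in microglia was −2.69 on full-splice-match reads. Ftl1 in neuron against astrocyte sEVs was −0.274 without TMM, −0.0651 in the 2 groups alone, −0.373 with Ftl1 left out of library sizes and −0.136 to 0.377 with a library left out. The Fth1 calls in astrocyte and neuron sEVs, and the ferritin calls in microglia cells, held without each library in turn. The cause of these changes was not tested. Tfrc, Ireb2 and Aco1 rest on few reads, which limits what their levels can show.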
